A study of Mus musculus with 18 samples.

Results

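The cells described here are fibroblasts of mouse back skin that carry RNA of Cpz together with a high level of collagen type I RNA. They were chosen from the counts of unique molecular identifiers (UMIs, the barcodes that mark single captured RNA molecules) by a fixed rule. A barcode was kept as a cell if it had 200 or more genes and 500 or more UMIs, of which no more than 10% were mitochondrial. A fibroblast was a kept cell in which Col1a1, Col1a2, Col3a1 and Dcn made up at least 1% of the UMIs, with at least 1 UMI of Pdgfra, 0 of the leukocyte gene Ptprc and under 0.3% of the keratinocyte genes Krt5 and Krt14. A Cpz fibroblast then had at least 2 UMIs of Cpz, under 5 of Tnc, under 3 of Coch and Crabp1 together, under 6 of Mme, Wnt5a, Grem1 and Igfbp2 together, and under 4 of Slc26a7, Prlr, Pappa2 and Corin together. Of 47251 kept cells, 10733 were fibroblasts and 2149 of these were Cpz fibroblasts. They lay almost all in control skin, with 2062 cells there and 87 in expanded skin.

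All mice had the same operation, in which an incision on the back near the tail gave access to a path under the skin up to the neck. Mice of the expanded arm received a hydrogel expander there, whereas control mice received none, and skin was taken after 1, 2 or 4 days. Each arm had 5 libraries of 10x 3′ mRNA counts from sorted DAPI-negative living cells, namely day 1 rounds 1 and 2, day 2 rounds 1 and 2, and day 4 round 1. Each library is a pool of the mice of its arm and round, and strain, age and sex are not given in the sources used here. The p-values below therefore measure the spread between pooled libraries and not between mice. In the comparison of the arms this is the spread left after day as covariate. In the comparison of fibroblast classes it is the spread left with library as block.

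Cpz encodes carboxypeptidase Z, a secreted enzyme of the extracellular matrix with a cysteine-rich domain that can bind Wnt proteins. Dermal fibroblasts build the collagen fibres that give skin its tensile strength. Meg3, Rian and Mirg are noncoding RNAs of the imprinted Dlk1-Dio3 region, which are expressed from the maternal chromosome and host many small RNAs. In the GRCm38 annotation Cpz lies on the minus strand of chromosome 5 at 35502218 to 35525698. Meg3 lies on the plus strand of chromosome 12 at 109541001 to 109571726, Rian follows at 109603940 to 109661716, and Mirg lies at 109729764 to 109749460. Between Rian and Mirg lies B830012L14Rik, a long intergenic noncoding RNA at 109695586 to 109702587 on the same strand.

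The 250 bases before the RefSeq start of Cpz and of Meg3 are shown because the former gene names the cells and the latter opens the row of chromosome 12 transcripts whose levels did not overlap between the arms. Both come from RefSeq on GRCm38.p6, and capitals mark matches to 5 motifs searched on both strands. RefSeq starts differ from the gene models above: the Cpz window reaches into the printed Cpz model, and that of Mirg lies inside the printed Mirg. The motifs were the TATA box TATAAA, the GC box GGGCGG, the E-box CACGTG, the AP-1 site TGANTCA and the cAMP response element TGACGTCA.
Cpz, chr5:35525627-35525876, minus strand: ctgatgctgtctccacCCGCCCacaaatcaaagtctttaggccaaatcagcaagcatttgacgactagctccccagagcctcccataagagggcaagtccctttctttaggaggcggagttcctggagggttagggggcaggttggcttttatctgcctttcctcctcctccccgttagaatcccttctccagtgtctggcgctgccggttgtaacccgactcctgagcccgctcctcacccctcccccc
Meg3, chr12:109540746-109540995, plus strand: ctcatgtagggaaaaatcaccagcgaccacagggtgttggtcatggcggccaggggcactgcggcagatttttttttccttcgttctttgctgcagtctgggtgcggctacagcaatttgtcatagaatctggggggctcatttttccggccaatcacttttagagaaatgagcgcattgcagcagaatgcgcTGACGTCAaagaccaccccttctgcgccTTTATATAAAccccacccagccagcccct
The Cpz window had 57.6% G and C, 8 CpG dinucleotides and 1 GC box on the other strand, which began at base -234 from the start. The Meg3 window had 52.4% G and C and 10 CpG dinucleotides, with TGACGTCA at base -57 and TATAAA at base -25. A TATAAA match on the other strand began at base -29 and overlaps the latter. Of 32851 RefSeq windows of this length, 1.546% held TGACGTCA, 12.37% held TATAAA and 32.74% held GGGCGG on either strand, and the median window had 52.4% G and C and 6 CpG dinucleotides. The windows of Rian, of Mirg and of a second RefSeq entry of Meg3, at chr12:109545148-109545397, held none of the 5 motifs. A match describes the letters of the window and no binding.

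Cpz fibroblasts were a large class of the control fibroblasts and a rare one of the expanded fibroblasts. In control skin they made up 34.97% of the fibroblasts in round 1 of day 1 (exact 95% binomial interval 33.1% to 36.9%, which like all such intervals here covers counting error only) and 18.6% in round 2 (17.0% to 20.3%). On day 2 they made up 26.9% (23.4% to 30.7%) and 18.1% (15.9% to 20.6%), and on day 4 they made up 22.6% (20.7% to 24.5%). In expanded skin the shares were 4.86% (3.54% to 6.49%) and 2.26% (1.32% to 3.60%) on day 1, 3.91% (2.20% to 6.36%) and 0.613% (0.0155% to 3.37%) on day 2, and 3.57% (1.80% to 6.30%) on day 4. All 5 control libraries lay above all 5 expanded ones. The means were 24.2% ± 6.97 (SD, n = 5) and 3.04% ± 1.65 (SD, n = 5). No test was made of these shares, because the rule limits genes whose level itself differed between the arms. Fibroblasts as a whole made up 18.1% to 42.9% of the kept control cells and 8.46% to 30.0% of the kept expanded cells.

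**Figure D1:**
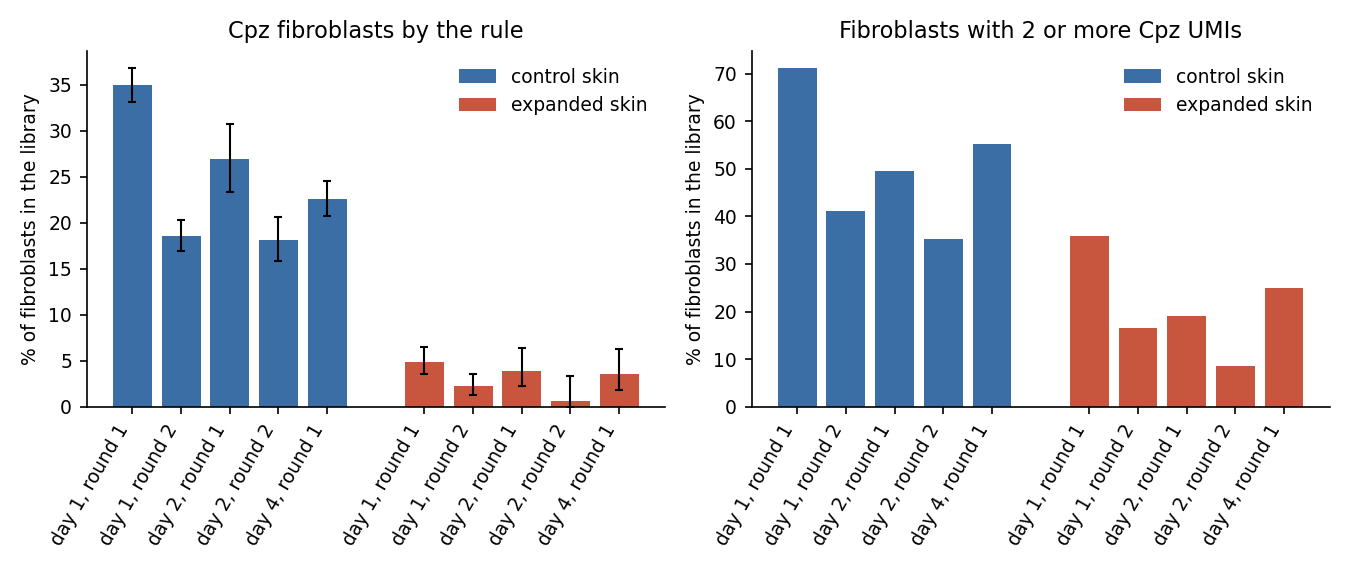
Share of the fibroblasts in each of 10 libraries that met the whole rule (left, with exact 95% binomial intervals) or only the threshold of 2 UMIs of Cpz (right). The whole rule gave 18.1% to 34.97% in control and 0.613% to 4.86% in expanded libraries, whereas the Cpz threshold alone gave 35.3% to 71.3% and 8.59% to 35.8%.

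Both steps of the rule left a smaller share of the expanded fibroblasts. Fibroblasts with at least 2 UMIs of Cpz made up 50.5% ± 13.9 (SD, n = 5) of the control and 21.0% ± 10.2 (SD, n = 5) of the expanded fibroblasts, and the ranges of the arms overlapped slightly. Of these Cpz-positive cells, 48.2% ± 5.33 met all limits in control skin and 13.8% ± 4.75 in expanded skin. The arms differed most at the limits on Tnc and on the pair of Coch and Crabp1. Tnc, a matrix glycoprotein of wounds, was at or over its limit in 3.79% ± 3.76 of control and 49.7% ± 13.6 of expanded Cpz-positive cells. Of these 134 control and 242 expanded cells, only 25 and 18 met all other limits. Without the limit on Tnc the rule took 24.5% ± 6.90 of the control and 3.73% ± 1.55 of the expanded fibroblasts (SD, n = 5). Coch and Crabp1 together were at or over their limit in 8.27% ± 2.26 and 49.9% ± 22.01 of the Cpz-positive cells. Mme, Wnt5a, Grem1 and Igfbp2 together were at or over theirs in 47.5% ± 5.49 and 63.8% ± 8.23. Cpz itself was lower over all expanded fibroblasts, with 428, 242, 307, 138 and 326 CPM (UMIs of the gene scaled to the same total of gene UMIs in every library) in the control libraries against 170, 77.2, 55.8, 20.1 and 71.0 CPM in the expanded ones. These values are a description, since they served to choose the cells.

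The thresholds cut through a continuous range. Control fibroblasts with 1 UMI of Cpz that met all other limits numbered 425 and held 19576 CPM of Col1a1 and 1232 CPM of Meg3. The 332 control cells just inside, with 2 UMIs, held 30370 CPM of Col1a1 and 1613 CPM of Meg3. The 516 control cells with 10 or more UMIs of Cpz held 76974 CPM of Col1a1 and 1942 CPM of Meg3, at a median of 16958 UMIs per cell against 10421 for the cells with 2 UMIs. The median depth of the Cpz fibroblasts was 9418 to 15153 UMIs in control and 3143 to 20159 UMIs in expanded libraries, where the lowest value belongs to the single cell of day 2 round 2.

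The label of the cells names 4 markers, of which Cpz and Col1a1 belong to the rule, so that their levels follow from the choice of cells. Only Meg3 and Rian were not used by the rule. Cpz averaged 512 ± 79.8 CPM (SD, n = 5) in control Cpz fibroblasts, and Col1a1, an alpha chain of collagen type I, averaged 49476 CPM against 11003 CPM in Cpz-low fibroblasts. The latter pass the same gate and limits with under 2 UMIs of Cpz, and they numbered 1815 in control and 325 in expanded skin. Meg3 averaged 2041 CPM against 1119 CPM, and Rian averaged 686 CPM against 348 CPM. Neither marks this class alone. Control fibroblasts with at least 2 UMIs of Cpz that were at or over a limit carried both about as often, as given below. The name of resting cells rests on no marker of its own, so the cells are called by their rule. Markers of other cell types were low in both arms: the summed keratinocyte list ran from 50.2 to 173 CPM in control and from 28.6 to 73.0 CPM in expanded libraries, and the leukocyte list from 70.1 to 229 and from 21.4 to 228 CPM. The neutrophil list gave 1.94 to 5.11 CPM in control and 1.11 to 8.14 CPM in 3 expanded libraries, but 913 CPM in the expanded library of day 4, where 121 of 123 UMIs of S100a9 came from 1 cell. The muscle genes Myh4, Pax7 and Myf5 had 0 UMIs.

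Over the whole series the libraries held 17726739 to 75470722 gene UMIs. The Cpz fibroblasts held 2150159 to 13933651 of them in a control library but only 197080 to 903538 in the 4 expanded libraries with at least 10 such cells, which had 43, 17, 15 and 11 cells. The fifth expanded library, day 2 round 2, had 1 cell and entered no level or test. Barcodes that also occurred in another library marked 526 kept cells and 33 Cpz fibroblasts. Of the Cpz fibroblasts, 651 of 2062 control and 39 of 87 expanded cells carried at least 5 UMIs of other cell types' markers, over 30000 UMIs or more than 1 hashtag, and are called mixed droplets below.

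Cpz fibroblasts were set beside the Cpz-low fibroblasts of the same control libraries. These contrasts are a description, because the classes were cut from the same counts. Of 9569 genes with at least 5 CPM, 7.87% were higher in the Cpz fibroblasts in all 5 control libraries and 42.9% were lower. CPM values share 1 total per library, and the summed fibroblast list took 107675 to 197632 CPM in Cpz fibroblasts against 44645 to 59215 in Cpz-low fibroblasts. Cldn10, a claudin, averaged 188 ± 47.8 CPM against 41.6 ± 13.1 CPM (SD, n = 5), which is 4.43-fold. Sema3b, a secreted semaphorin, averaged 124 ± 11.7 against 29.3 ± 4.73 CPM. Abcc4, an organic anion exporter, averaged 92.3 ± 15.6 against 21.0 ± 4.31 CPM. Sparc, a collagen-binding matricellular protein, averaged 28748 ± 4048 against 9325 ± 1630 CPM. Sulf2, an extracellular heparan sulfatase, averaged 347 ± 33.9 against 116 ± 20.2 CPM. These 5 genes were taken from genes higher in the Cpz fibroblasts in 9 of 9 libraries, so that this order was fixed by the choice.

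Of 23 collagen processing genes with at least 5 CPM, 11 were higher in Cpz than in Cpz-low fibroblasts in all 5 control libraries, among them the collagen chaperone Serpinh1, the prolyl hydroxylase subunit P4ha2, the lysyl oxidase Loxl2 and the procollagen proteinases Bmp1 and Adamts2, and 4 were lower. Of 20 further collagen genes, Col5a1, Col5a2 and Col16a1 were higher and 14 were lower. Of 12 reticular and adipogenic markers, 0 were higher and 11 were lower. Apod, a lipid-binding lipocalin, averaged 466 ± 309 CPM against 3329 ± 1165 CPM, and Mgp, the matrix Gla protein, averaged 51.2 ± 52.5 against 282 ± 135 CPM. Of 22 actin cytoskeleton genes 19 were lower, and of 24 immediate early genes 18 were lower. Of 16 imprinted genes 4 were higher, namely Meg3, Rian, Mirg and Gnas, and 8 were lower.

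A second neighbour is the 2855 fibroblasts with at least 2 UMIs of Cpz that were at or over a limit of the rule. Against these, Cpz fibroblasts were higher in Gpx3, an extracellular glutathione peroxidase, with 311 ± 176 against 35.6 ± 17.9 CPM (SD, n = 5 control libraries). They were also higher in Lpl, lipoprotein lipase, with 361 ± 87.7 against 103 ± 36.4 CPM, in the complement gene C7, with 194 ± 88.5 against 62.2 ± 30.4 CPM, and in the chemokine Cxcl12, with 220 ± 23.9 against 85.7 ± 39.6 CPM. They were lower in Fmod, the collagen-binding fibromodulin, with 1.43 ± 0.661 against 66.9 ± 26.7 CPM, and in F13a1, a transglutaminase subunit, with 3.47 ± 2.11 against 107 ± 28.9 CPM. Col1a1, Sparc, Cldn10 and Sema3b were near each other in both Cpz-positive classes, with 28748 CPM of Sparc in Cpz fibroblasts and 27645 CPM in the cells over a limit. Gpx3, Apod and Mgp were lowest in the cells over a limit and highest in Cpz-low fibroblasts, with the Cpz fibroblasts between them.

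**Figure D2:**
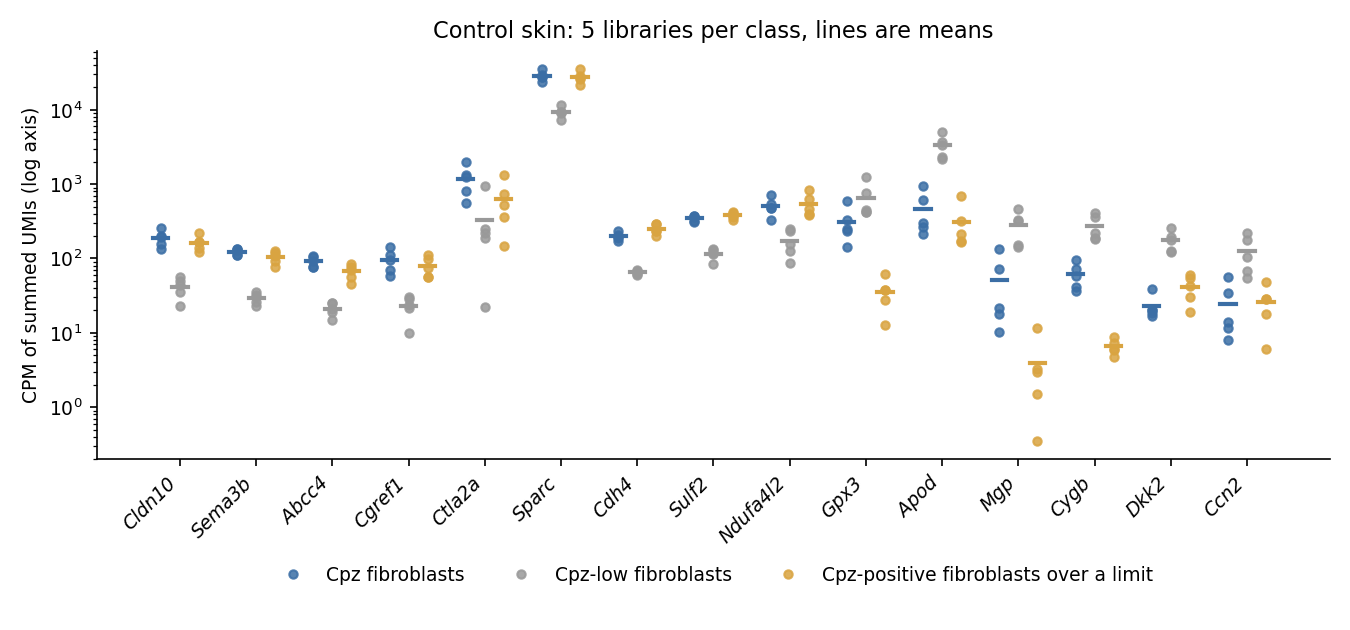
CPM of summed UMIs (log axis) of 15 genes in 3 fibroblast classes of the 5 control libraries, with a point per library and a line at the mean. Cldn10, Sema3b, Abcc4, Cgref1 and Sparc are near each other in the Cpz-positive classes and lower in Cpz-low fibroblasts, whereas Gpx3, Mgp and Cygb are lowest in Cpz-positive cells over a limit.

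The spread among control Cpz fibroblasts was measured in 2016 cells thinned to 5000 UMIs, where the median variance over mean of 5857 genes was 1.08. The highest values belonged to abundant transcripts, with 88.5 for Gm42418, 64.8 and 59.4 for Col1a2 and Col1a1, which the rule uses, and 62.8 for the nuclear noncoding RNA Malat1, each detected in nearly every cell. Fos, an immediate early transcription factor, reached 39.2 with detection in 72.7%. Ctla2a, a cysteine protease inhibitor homologue, reached 23.1 and was detected in 49.6% of the thinned cells. Cxcl2, a neutrophil chemokine, reached 22.6 with detection in 11.0%, and Ccl2, a monocyte chemokine, reached 21.7 with detection in 42.9%. Gpx3 reached 14.9 with detection in 15.2%. Meg3 reached 10.8 but was detected in 89.1% of these cells, so that it varied in amount in cells of which most carried it.

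In thinned data of 2000 UMIs per cell, Meg3 was detected in 77.0% of control and 49.4% of expanded Cpz fibroblasts, against 91.9% and 73.6% before thinning. In Cpz-low fibroblasts the thinned shares were 56.6% and 27.4%, and in Cpz-positive fibroblasts over a limit they were 81.2% and 46.6%. Keratinocytes, used here as a class that should lack it, gave 2.46% in control and 0% in 291 expanded cells after thinning. Rian was detected after thinning in 50.7% of control and 29.9% of expanded Cpz fibroblasts. In Cpz-positive fibroblasts over a limit its shares were 51.7% and 19.7%. Median depths before thinning were 12764 and 17415 UMIs in control and expanded Cpz fibroblasts and 10440 and 20858 UMIs in keratinocytes. Thinning left out 3 control Cpz fibroblasts.

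The comparison of expanded with control skin asks how the RNA of Cpz fibroblasts differed under an expander. Counts were summed over the Cpz fibroblasts of each library and tested by edgeR's quasi-likelihood test with day as covariate and Benjamini-Hochberg adjustment. Genes of the rule and mitochondrial genes were not tested. With at least 20 cells per library, 5 control libraries and 1 expanded library, day 1 round 1, remained, and the lone expanded library was assumed to vary like the controls. The fit had 2 residual degrees of freedom, which came only from the control libraries of day 1 and day 2. In that fit 9 of 11044 genes passed an adjusted p of 0.05, which is 0.0815%, with 4 higher (0.0362%) and 5 lower (0.0453%). At an unadjusted p under 0.05 there were 1808 genes. The count was 440 without control day 2 round 1, 294 without control day 2 round 2, 20 without control day 4 and 18 without control day 1 round 2.

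Of the 9 genes, named here after their values were seen, B830012L14Rik fell by 2.32 (log2, SE 0.30, edgeR adjusted p = 0.029). Mpp7, a cell polarity scaffold, and Uap1, an enzyme of UDP-N-acetylglucosamine synthesis, fell by 2.52 and 2.32 (both adjusted p = 0.029). Adamts4, a proteoglycan-cleaving proteinase, and the interferon-induced GTPase Gbp2 fell by 2.51 (adjusted p = 0.017) and 2.59 (adjusted p = 0.023). Ccn3, a matricellular protein, rose by 3.49 (adjusted p = 0.029). The acute phase gene Saa2 rose by 6.43 (adjusted p = 0.016), but 28 of its 51 UMIs in the expanded library came from 1 cell. Dusp2 and Adat1 rose by 3.97 and 3.75 (both adjusted p = 0.023), and 39 of 47 and 38 of 51 of their UMIs came from 1 cell. Not all of these genes differed in the other expanded libraries. Adamts4 held 383 to 834 CPM in control libraries and 182 CPM in the tested expanded library, but 692, 760 and 299 CPM in the other expanded libraries.

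A fuller fit, chosen after the cell numbers were seen, used libraries with at least 10 Cpz fibroblasts and so 5 control and 4 expanded libraries. It called 512 of 9807 genes (5.22%), with 119 higher (1.21%) and 393 lower (4.01%) in expanded skin, and 1965 genes had an unadjusted p under 0.05. Of the 9 genes of the smaller fit, 7 were called again and 9 had the same direction. With RLE in place of TMM size factors the call was 163 higher and 216 lower, so the share of higher genes among the called moved from 23.2% to 43.0%. The median log2 difference of all tested genes moved by 0.10, from -0.08 to 0.02. In cells thinned to 2000 UMIs 377 of 4541 genes were called, 16 higher and 361 lower, so that 4.24% of the called genes were higher, and the median of all tested genes was -0.45. Without the limit on Tnc 746 genes were called. The count fell to 200 without control day 4, 209 without expanded day 4, 257 without expanded day 1 round 1, 274 and 291 without control day 1 rounds 1 and 2, and 299 without expanded day 2 round 1. Without mixed droplets, which left day 4 of the expanded arm with too few cells, it was 267. All log2 differences below are from this fit, expanded minus control. Counts of called genes in the lists below stand beside the 5.22% called over all genes.

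The row of noncoding RNAs on chromosome 12 was lower in expanded skin in every library compared. Meg3 held 1697, 2111, 2510, 1930 and 1957 CPM in the control libraries, in the order day 1 rounds 1 and 2, day 2 rounds 1 and 2, and day 4. It held 782, 1111, 575 and 482 CPM in the expanded libraries of day 1 rounds 1 and 2, day 2 round 1 and day 4, the order used throughout. The highest expanded library lay below the lowest control one, and Meg3 fell by 1.73 (log2, SE 0.22, edgeR adjusted p = 0.00095). Its mean was 2.77-fold lower in the expanded libraries. Rian held 564, 744, 746, 634 and 743 CPM in control and 281, 415, 139 and 162 CPM in expanded libraries. It fell by 1.79 (SE 0.24, edgeR adjusted p = 0.0011), and its adjusted p was 0.072 in cells of 5000 to 20000 UMIs, where it fell by 1.10.

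B830012L14Rik held 173, 229, 238, 210 and 223 CPM in control and 50.9, 81.4, 28.6 and 30.4 CPM in expanded libraries and fell by 2.40 (log2, SE 0.24, edgeR adjusted p = 0.00033). Mirg held 168, 189, 227, 105 and 123 CPM and 16.6, 73.3, 57.1 and 20.3 CPM and fell by 2.40 (SE 0.39, edgeR adjusted p = 0.0034). In none of these 4 transcripts did the arms overlap, where 2.98% of 9797 genes had every expanded library below every control one. Of 26 imprinted genes 14 were tested, and 0 rose and 6 fell, with a median of -0.70 against -0.08 for all genes tested. The others that fell were Peg3, Plagl1 and Igf2r, by 1.31, 1.44 and 0.86. Igf2r lost its call with RLE size factors (edgeR adjusted p = 0.063), where 5 genes of the list fell, and the call held in 10 of 19 alternatives. Without mixed droplets Peg3, Plagl1 and Igf2r were not called (edgeR adjusted p = 0.060, 0.064 and 0.060). Peg3 encodes a zinc finger protein, Plagl1 a zinc finger transcription factor, and Igf2r the receptor that clears insulin-like growth factor 2.

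**Figure D3:**
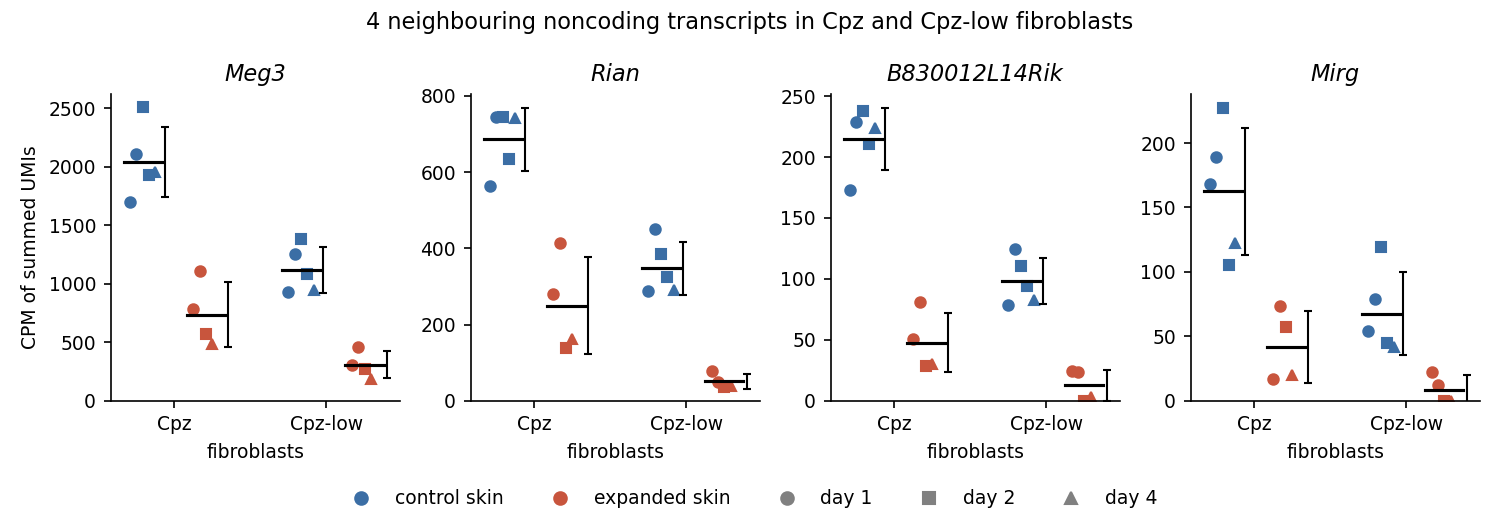
CPM of summed UMIs of Meg3, Rian, B830012L14Rik and Mirg in Cpz and Cpz-low fibroblasts of 5 control and 4 expanded libraries. Points are libraries, lines are means and bars are SDs. In Cpz fibroblasts the expanded libraries lie below all control libraries for each transcript, with Meg3 at 482 to 1111 against 1697 to 2510 CPM.

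The lower level of these transcripts was not particular to the Cpz fibroblasts. In Cpz-low fibroblasts Meg3 averaged 1119 ± 197 CPM in control (SD, n = 5) and 307 ± 116 CPM in expanded skin (SD, n = 4), and Rian averaged 348 ± 69.1 and 50.9 ± 18.5 CPM. The class-by-arm interaction of edgeR gave a difference of 0.24 for Meg3 (SE 0.15, adjusted p = 0.61), where a positive value means a smaller fall in Cpz fibroblasts. For Rian it gave 1.11 (SE 0.24, adjusted p = 0.063), for B830012L14Rik 0.31 (SE 0.35, adjusted p = 0.82) and for Mirg -0.0023 with an SE of 1.25. A difference between the classes was thus not shown for any of the 4.

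Collagen genes and the enzymes that process procollagen fell in part. Collagen type I itself belongs to the rule and was not tested. Its Col1a1 RNA held 68309, 49388, 53967, 31074 and 44640 CPM in control and 34624, 31410, 17837 and 15664 CPM in expanded libraries, so that the arms overlapped by 1 control library. Of 19 other collagen genes tested (of 21 in the list), 1 rose and 5 fell, with a median of -0.39. Col15a1, a collagen of basement membrane zones, held 341, 353, 404, 347 and 371 CPM in control and 245, 147, 118 and 132 CPM in expanded libraries and fell by 1.39 (log2, SE 0.20, edgeR adjusted p = 0.0015). Col5a1, a chain of the collagen that regulates the width of type I fibrils, held 793, 627, 847, 549 and 728 CPM and 528, 358, 193 and 447 CPM and fell by 1.22 (SE 0.23, edgeR adjusted p = 0.0081). Col5a2, Col16a1 and Col18a1 fell by 0.81 to 0.86, and Col23a1, at 3.66 to 6.54 CPM in control and 7.75 to 66.0 CPM in expanded libraries, rose by 1.96. With RLE size factors 1 rose and 3 fell.

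Of 21 collagen processing genes tested (of 26), 0 rose and 7 fell, with a median of -0.51, and with RLE size factors 5 fell. Serpinh1, the collagen chaperone HSP47, held 1337, 1308, 1915, 2203 and 1938 CPM in control and 1165, 525, 839 and 1020 CPM in expanded libraries. It fell by 1.11 (log2, SE 0.22, edgeR adjusted p = 0.0093), with adjusted p = 0.052 without control day 4. P4ha2, a catalytic subunit of prolyl 4-hydroxylase, fell by 1.45 (SE 0.22, edgeR adjusted p = 0.0022), from 109 to 215 CPM in control to 46.4 to 80.8 CPM in expanded libraries. Loxl2, a lysyl oxidase that crosslinks collagen, fell by 1.24 (SE 0.21, edgeR adjusted p = 0.0041), from 236 to 366 CPM to 96.4 to 203 CPM. For these 3 genes every expanded library lay below every control library, as for 2.98% of 9797 genes. The procollagen enhancer Pcolce2, the procollagen N-proteinase Adamts2, the prolyl hydroxylase P4ha1 and P3h4 fell by 0.72 to 0.89.

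Proteoglycans and adhesive glycoproteins of the matrix gave a few lower genes. Of 9 small leucine-rich proteoglycans tested (of 14), 0 rose and 3 fell, with a median of -0.53. Ogn, osteoglycin, held 169, 166, 356, 221 and 343 CPM in control and 101, 32.6, 57.1 and 157 CPM in expanded libraries and fell by 1.65 (log2, SE 0.27, edgeR adjusted p = 0.0032). Ecm2 fell by 1.42 (edgeR adjusted p = 0.0015) and the collagen-binding Aspn, asporin, by 0.94 (edgeR adjusted p = 0.012). Fn1, fibronectin, held 491, 526, 539, 298 and 673 CPM in control and 203, 204, 196 and 203 CPM in expanded libraries. It fell by 1.57 (SE 0.22, edgeR adjusted p = 0.0015), and the expanded libraries were nearly equal to each other. Of 17 matricellular and adhesive glycoproteins, Fn1, Sparc and Vit fell and Ccn3 rose, with a median of -0.29. Ccn3 had 105, 9, 11 and 2 UMIs in the expanded libraries. On day 2 round 1 and day 4, 10 of 11 and 2 of 2 came from 1 cell each. Its 10.1 CPM of expanded day 4 lay inside the control range of 3.52 to 10.6. Vit had 7, 1, 5 and 3 UMIs in the expanded libraries. Sparc fell by 0.86 (edgeR adjusted p = 0.022), and that call held in 12 of 19 alternatives.

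Has1, a hyaluronan synthase, held 818, 635, 633, 806 and 1035 CPM in control and 410, 387, 175 and 315 CPM in expanded libraries and fell by 1.60 (log2, SE 0.21, edgeR adjusted p = 0.00095). Ugdh, which makes the UDP-glucuronate that hyaluronan synthases use, fell by 0.99 (edgeR adjusted p = 0.026), with 737 CPM in expanded day 1 round 2 inside the control range of 618 to 916. No other of the 12 hyaluronan and versican genes tested was called. Of 17 elastic fibre and microfibril genes, Fbln1, fibulin 1, fell by 0.76 and Fbn2, fibrillin 2, rose by 1.58, and the remaining 15 were not called. Without mixed droplets the Fbn2 difference was 0.54 with an edgeR adjusted p of 0.67. Fbn2 was low, with 9.05 to 18.4 CPM in control and 31.0 to 85.7 CPM in expanded libraries. Among the metalloproteinases and their tissue inhibitors, the inhibitors Timp2 and Timp3 and the proteinase Mmp27 fell, and the inhibitor Timp1 rose. The calls of Timp2 and Timp3 held in 9 and 5 of 19 alternatives and were lost with RLE size factors (edgeR adjusted p = 0.058 and 0.068). Timp1 held 46.8 to 203 CPM in control and 142 to 575 CPM in expanded libraries, rose by 1.46 (edgeR adjusted p = 0.012) and lost that call without expanded day 2 round 1 (log2 0.91, adjusted p = 0.096).

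The genes that set Cpz fibroblasts apart from Cpz-low fibroblasts in control skin fell in part as well. Cldn10 held 134, 156, 193, 198 and 259 CPM in control and 89.6, 69.2, 82.1 and 60.9 CPM in expanded libraries and fell by 1.39 (log2, SE 0.20, edgeR adjusted p = 0.0015). Sema3b held 134, 111, 129, 111 and 133 CPM and 49.8, 44.8, 32.1 and 55.8 CPM and fell by 1.70 (SE 0.20, edgeR adjusted p = 0.00086). Abcc4 fell by 1.64 (SE 0.23, edgeR adjusted p = 0.0015) and Sulf2 by 1.03 (SE 0.18, edgeR adjusted p = 0.0062). Cgref1, a secreted cell growth regulator, fell by 1.87 (SE 0.24, edgeR adjusted p = 0.00095). In each of these 5 genes every expanded library lay below every control one, as in 2.98% of 9797 genes. Wfdc12, the gene outside the rule with the largest fold over Cpz-low fibroblasts (6.34), was called higher instead, with limits given below. Ctla2a, at 809, 2007, 554, 1233 and 1319 CPM in control and 2186, 1262, 239 and 1827 CPM in expanded libraries, gave -0.42 (SE 0.36, edgeR adjusted p = 0.56), and Bcat1 gave -0.34 (edgeR adjusted p = 0.38).

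Further lower genes with full separation of the arms were Fndc1, a fibronectin type III protein, Errfi1, a feedback inhibitor of the epidermal growth factor receptor, Jdp2, a repressor of AP-1, and Spon2, a secreted spondin. Such separation on the lower side held for 2.98% of 9797 genes. Errfi1 held 1364, 1069, 977, 1000 and 1102 CPM in control and 616, 554, 361 and 604 CPM in expanded libraries and fell by 1.35 (log2, SE 0.18, edgeR adjusted p = 0.00095). Fndc1 fell by 2.24 (SE 0.28, edgeR adjusted p = 0.00095), from 96.5 to 207 CPM to 36.6 to 49.98 CPM. Jdp2 fell by 1.75 (SE 0.24, edgeR adjusted p = 0.0011) and Spon2 by 1.78 (SE 0.26, edgeR adjusted p = 0.0015). Csf1, the macrophage growth factor, fell by 0.98 (SE 0.17, edgeR adjusted p = 0.0056), with 256 CPM in expanded day 1 round 2 above the lowest control value of 238.

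Universal and progenitor fibroblast markers had the lowest median of all lists in this fit, at -0.97 over 13 genes tested, of which 0 rose and 4 fell. They were Dpp4, a surface peptidase, Cd34, a surface sialomucin, Col15a1 and the complement regulator Cd55. The rank of the list depended on the libraries. Without 1 library its median ranged from -1.09 to -0.64, while those of the reticular and the imprinted list reached -1.28 and -1.13. Dpp4 held 74.9, 77.5, 69.3, 83.3 and 71.8 CPM in control and 36.5, 28.5, 28.6 and 76.1 CPM in expanded libraries, so that expanded day 4 lay within the control range. Dpp4 fell by 1.18 (log2, SE 0.23, edgeR adjusted p = 0.0093). Pi16, another marker of that list, gave -0.34 (edgeR adjusted p = 0.54).

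Fewer genes were called higher than lower, by a margin that depended on the size factors and tool. The calls were 119 against 393 with TMM, 163 against 216 with RLE and 233 against 271 by DESeq2. Full separation of the arms went the other way, with 515 genes higher and 292 lower in expanded skin. Several rising genes rested on few cells. Pdpn, the membrane glycoprotein podoplanin, held 258, 218, 231, 218 and 212 CPM in control and 505, 489, 543 and 578 CPM in expanded libraries. Every expanded library lay above every control library, which held for 5.26% of 9797 genes, and Pdpn rose by 1.00 (log2, SE 0.16, edgeR adjusted p = 0.0039). The call was lost without mixed droplets (log2 0.78, adjusted p = 0.055). Chl1, a neural cell adhesion molecule, held 29.5, 23.9, 16.7, 159 and 62.7 CPM in control and 257, 269, 525 and 604 CPM in expanded libraries. It rose by 2.85 (SE 0.39, edgeR adjusted p = 0.0011) and was detected in 27 of 43, 7 of 17, 12 of 15 and 5 of 11 expanded cells. Cyp7b1, an oxysterol hydroxylase, rose by 1.60 (SE 0.23, edgeR adjusted p = 0.0015), from 37.2 to 100 CPM to 112 to 275 CPM. Lgmn, the lysosomal protease legumain, held 24.6 to 43.0 CPM in control and 94.1 to 132 CPM in expanded libraries and rose by 1.28 (SE 0.21, edgeR adjusted p = 0.0041).

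Ccn2, connective tissue growth factor, held 8.04, 55.8, 11.6, 13.95 and 34.5 CPM in control and 197, 456, 57.1 and 472 CPM in expanded libraries. It rose by 3.04 (log2, SE 0.45, edgeR adjusted p = 0.0018), though it was seen in 12 of 43, 5 of 17, 4 of 15 and 3 of 11 expanded cells, and 80 of 93 UMIs of day 4 came from 1 cell. It was the only gene to rise among 14 YAP and TEAD targets, of which Tgfb2 fell. Of 22 actin cytoskeleton genes 0 rose and 0 fell by edgeR, with a median of 0.28, while 2 rose with RLE size factors and 4 rose by DESeq2. In cells thinned to 2000 UMIs the median of this list was -0.13 and that of all genes tested was -0.45. Actb held 1637 to 2138 CPM in control and 1867 to 3163 CPM in expanded libraries, with a log2 difference of 0.36 (SE 0.18, edgeR adjusted p = 0.28) that turned to -0.05 in thinned cells. Wfdc12, a secreted protease inhibitor, was called higher by 1.98 (edgeR adjusted p = 0.0015), but 28 of 29, 102 of 132 and 138 of 151 of its UMIs in expanded day 1 round 2, day 2 round 1 and day 4 came from 1 cell each. Without mixed droplets its difference was -0.47.

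**Figure D4:**
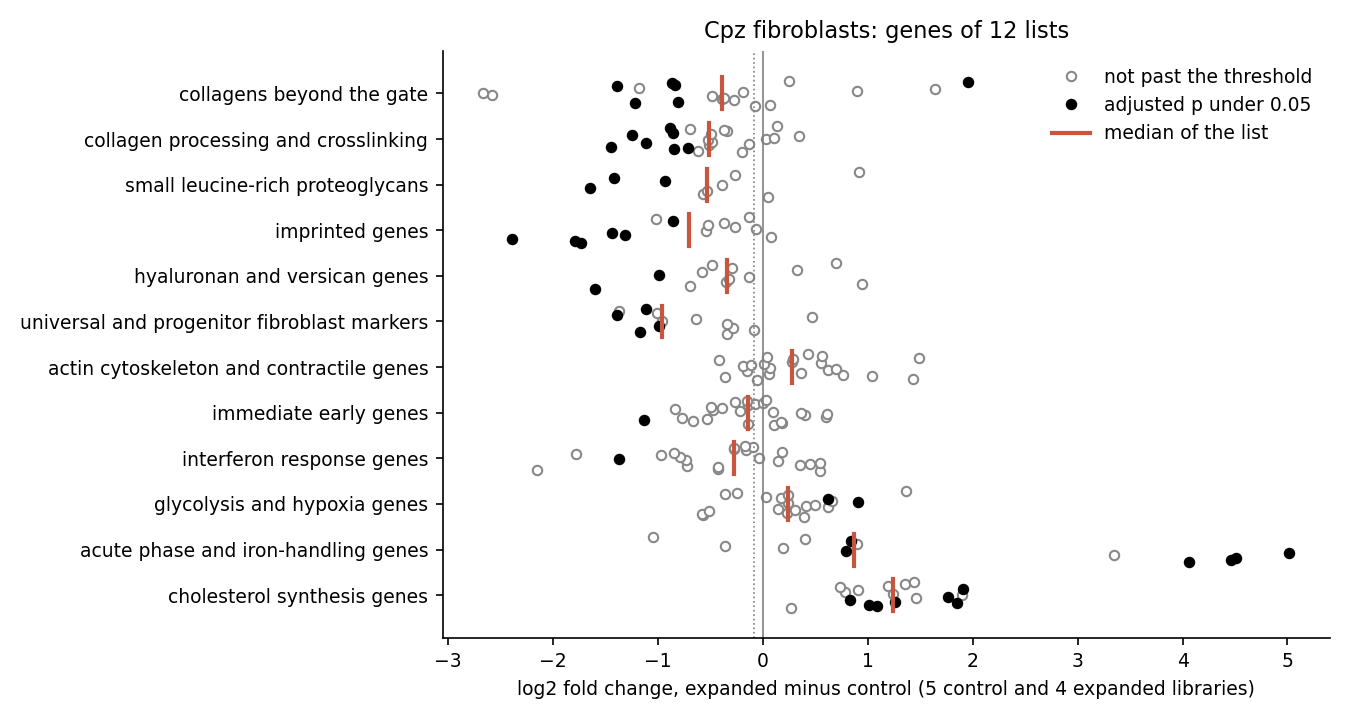
Log2 fold change of each gene of 12 lists in Cpz fibroblasts, expanded minus control, over 5 control and 4 expanded libraries. Filled points passed an edgeR adjusted p of 0.05, red lines are list medians and the dotted line is the median of all genes tested (-0.08). Cholesterol synthesis genes have a median of 1.24 with 7 of 17 called, while imprinted genes have a median of -0.70 with 6 of 14 called.

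Cholesterol synthesis genes stood on the high side. Of 17 tested, 7 rose and 0 fell, with a median of 1.24. Sqle, squalene epoxidase, held 4.09, 5.28, 6.98, 7.36 and 6.82 CPM in control and 19.9, 20.4, 39.3 and 15.2 CPM in expanded libraries and rose by 1.85 (log2, SE 0.33, edgeR adjusted p = 0.0062). Hmgcs1, the hydroxymethylglutaryl-CoA synthase of the pathway, named after its values were seen, held 42.4, 50.04, 40.0, 49.2 and 45.3 CPM and 89.6, 73.3, 143 and 162 CPM and rose by 1.09 (SE 0.21, edgeR adjusted p = 0.0093). Msmo1, a sterol oxidase, rose by 1.91 (edgeR adjusted p = 0.011) and Fdps, farnesyl diphosphate synthase, by 1.76 (edgeR adjusted p = 0.0093). In Sqle, Hmgcs1 and Msmo1 every expanded library lay above every control library, as in 5.26% of 9797 genes. The number called depended on cells and libraries: 0 of 5 genes tested were called in cells thinned to 2000 UMIs (median 0.36), 1 of 17 in cells of 5000 to 20000 UMIs, 2 of 17 without mixed droplets, 1 of 16 without expanded day 2 round 1 and 2 of 17 without either library of day 4. In Cpz-low fibroblasts Sqle averaged 17.7 CPM in control and 33.6 CPM in expanded skin, and the class-by-arm difference was 1.37 (SE 0.44, edgeR adjusted p = 0.22).

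Of 12 acute phase and iron-handling genes tested, 6 rose and 0 fell, with a median of 0.87. The members with the highest estimates rested on single cells. Hp, haptoglobin, had 48, 80 and 25 UMIs in 3 expanded libraries, and in each of them all came from 1 cell. Saa1 had 191 of 196 and 83 of 86 UMIs from 1 cell in expanded day 1 round 1 and day 4, and Saa1 and Saa2 are near-identical copies whose reads may be split between them. Serpina3n, a serpin of the acute phase, was spread over libraries, with 675, 748, 479, 1016 and 763 CPM in control and 1160, 1474, 1846 and 1294 CPM in expanded libraries. It rose by 0.79 (log2, SE 0.22, edgeR adjusted p = 0.048) a call held in 4 of 19 alternatives. In cells of 5000 to 20000 UMIs 0 of the 12 genes were called. Il33, an alarmin cytokine, rose by 3.43 (SE 0.40, edgeR adjusted p = 0.00086) and was seen in 3, 0, 12 and 5 expanded cells. Hp, Saa1 and Il33 are named after their values were seen.

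Further lists held between 0 and 4 called genes. Of 24 immediate early genes 0 rose and 1 fell (Fosl1), of 22 interferon response genes 0 rose and 1 fell (Gbp2), of 17 endoplasmic reticulum chaperone and stress genes 0 rose and 1 fell (Herpud1), and of 11 cell cycle genes 0 rose and 0 fell. The single calls made up 4.17%, 4.55% and 5.88% of their lists, near the 5.22% called of all genes tested. The calls of Fosl1 and Gbp2 held in 4 and 8 of 19 alternatives. Both were lost with RLE size factors (edgeR adjusted p = 0.079 and 0.052). Of 19 glycolysis and hypoxia genes 2 rose, Ldha and Eno1, and 0 fell, and neither was called in thinned cells. Ldha held 139 to 182 CPM in control and 260 to 309 CPM in expanded libraries and rose by 0.62 (log2, SE 0.15, edgeR adjusted p = 0.027), a call held in 8 of 19 alternatives. Fos, the immediate early gene with the highest spread between cells, held 2011 to 3696 CPM in control and 1150 to 5558 CPM in expanded libraries, with a difference of 0.10 (edgeR adjusted p = 0.91). Of 18 chemokines and inflammatory cytokines, Il33 and Csf3 were called higher and Csf1 fell. Csf3 had 0, 1, 33 and 2 UMIs in the expanded libraries, of which 26 of the 33 came from 1 cell, and it was higher in 2 of 4 pairs of day and round. The chemokine Ccl2 gave 0.05 (SE 0.40, edgeR adjusted p = 0.98), with 199 to 2877 CPM in expanded libraries.

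Of 26 genes of transforming growth factor beta, activin and bone morphogenetic proteins, the activin subunit Inhbb rose and the ligands Tgfb2 and Gdf10 and the antagonist Chrdl1 fell. Gdf10 had 0, 0, 1 and 0 UMIs and Chrdl1 0, 0, 2 and 0 UMIs in the expanded libraries. Their control means were 19.2 and 15.3 CPM, where 1 UMI equalled 1.11 to 5.07 CPM in the expanded libraries. These calls held in 10 and 9 of 18 alternatives, and Chrdl1 lost its call without mixed droplets (edgeR adjusted p = 0.11). Of 19 Wnt ligands and modulators 1 rose, Dkk2, which was seen in few expanded cells as given below, and 0 fell. Of 11 insulin-like growth factor genes 0 rose and 3 fell, namely Igf2r and the binding proteins Igfbp5 and Igfbp6. Of 11 complement genes the protease Cfb rose and C7 and Cd55 fell. Of 10 reticular and adipogenic markers Apod rose and Gpx3 and the fatty acid carrier Fabp4 fell, and of 9 papillary markers Pdpn and Col23a1 rose and 0 fell. Apod was higher in all expanded libraries than in the control library of the same day and round, with 264.9, 211, 301, 605 and 946 CPM in control and 385, 476, 1028 and 5495 CPM in expanded libraries, and its call held in 11 of 19 alternatives. Cd55, Tgfb2 and Igfbp5 lost their calls with RLE size factors (edgeR adjusted p = 0.070, 0.068 and 0.057). Without mixed droplets Fabp4, C7 and Igfbp6 lost theirs (edgeR adjusted p = 0.55, 0.16 and 0.078).

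The difference between arms was then compared between Cpz fibroblasts and Cpz-low fibroblasts of the same libraries. With at least 20 cells of both classes, 5 control and 1 expanded library remained, and edgeR's interaction test called 4 of 12293 genes (0.0325%), with 2 on each side (0.0163% each), against 1032 at an unadjusted p under 0.05. They were Vldlr and Rgcc on the lower side and Dkk2 and Gldn on the higher side. With at least 10 cells, 5 control and 4 expanded libraries gave 27 of 10463 genes (0.258%), 6 higher (0.0573%) and 21 lower (0.201%), against 1145 unadjusted. The count was 7 with the pairs of day and round as block in place of library, 75 without expanded day 1 round 1, 6 without expanded day 1 round 2 and 12 without expanded day 4.

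Vldlr, a lipoprotein receptor, held 46.3, 34.2, 49.8, 44.96 and 24.2 CPM in control and 12.2, 40.7, 7.14 and 10.1 CPM in expanded Cpz fibroblasts. A single UMI equalled 1.11, 4.07, 3.57 and 5.07 CPM in these expanded sums, so the expanded values rest on few UMIs. In Cpz-low fibroblasts Vldlr held 29.5, 21.6, 30.6, 29.5 and 16.9 CPM in control and 51.2, 109, 28.5 and 41.7 CPM in expanded libraries. The class-by-arm difference was -2.63 (log2, SE 0.25, edgeR adjusted p = 6.7e-05). Cp, the copper-binding ferroxidase ceruloplasmin, averaged 38.8 and 22.6 CPM in control and expanded Cpz fibroblasts but 114 and 624 CPM in Cpz-low fibroblasts, a difference of -3.31 (SE 0.40, edgeR adjusted p = 0.0011). Tgfbi, an adhesive protein induced by transforming growth factor beta, averaged 705 ± 59.1 and 491 ± 68.5 CPM (SD) in Cpz fibroblasts and 265 ± 31.3 and 475 ± 218 CPM in Cpz-low fibroblasts. Its difference was -1.39 (SE 0.24, edgeR adjusted p = 0.016), and in expanded skin the means of the 2 classes lay near each other.

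Timp3, a matrix-bound proteinase inhibitor, averaged 135 and 74.0 CPM in Cpz fibroblasts and 332 and 709 CPM in Cpz-low fibroblasts, a difference of -1.98 (edgeR adjusted p = 0.016). Col18a1, the basement membrane collagen that holds endostatin, gave -1.33 (SE 0.18, edgeR adjusted p = 0.0038). On the higher side, Dkk2, a Wnt antagonist, held 20.2, 39.0, 16.7, 20.2 and 18.6 CPM in control and 134, 212, 10.7 and 142 CPM in expanded Cpz fibroblasts. It was seen in 10 of 43, 6 of 17, 2 of 15 and 4 of 11 expanded Cpz fibroblasts. In expanded day 1 round 2 and day 4, 29 of 52 and 17 of 28 UMIs came from 1 cell each. Expanded day 2 round 1 held 3 UMIs. In Cpz-low fibroblasts Dkk2 averaged 175 and 131 CPM, and its difference was 2.57 (SE 0.40, edgeR adjusted p = 0.015), which was 2.11 with adjusted p = 0.077 without expanded day 1 round 2. Lgmn and Entpd1, an ectonucleotidase, gave 1.41 and 1.77 (both edgeR adjusted p = 0.016).

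With the pairs of day and round as block, 6 of the 12 interaction genes named by the rule kept their call, namely Vldlr, Cp, Vit, Col18a1, Dkk2 and Entpd1. The other 6 lost it, with an edgeR adjusted p of 0.064 for Tgfbi and for Timp3, 0.065 for Lgmn, 0.090 for Cxcl2, 0.10 for Bmp7 and 0.24 for Gm26802. Without expanded day 1 round 2, the calls of Vldlr, Cp, Vit and Col18a1 were kept, which are 4 of the 12.

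**Figure D5:**
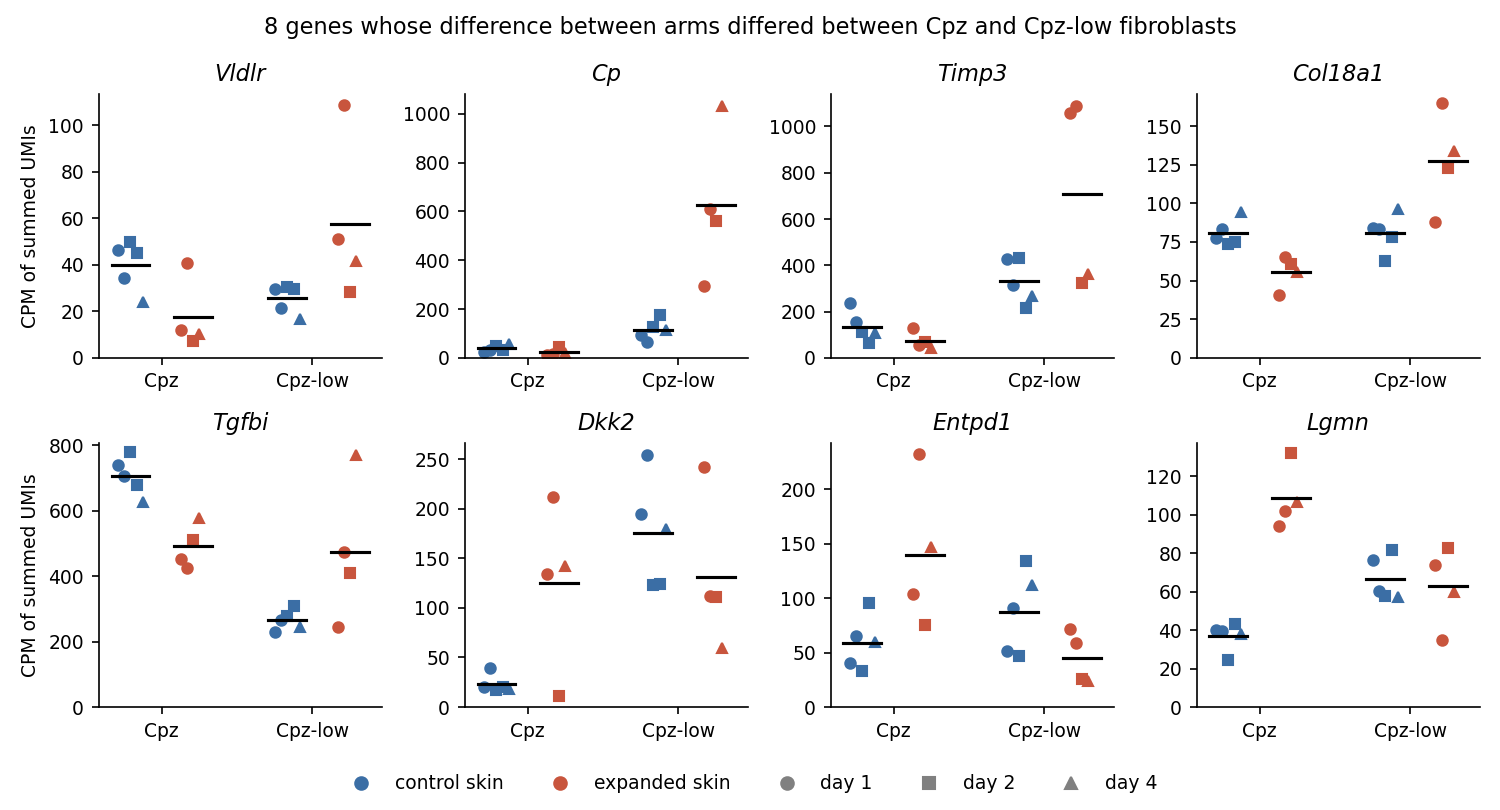
CPM of summed UMIs of 8 genes in Cpz and Cpz-low fibroblasts of 5 control and 4 expanded libraries, with points for libraries and lines for means. Vldlr, Cp, Timp3, Col18a1 and Tgfbi have lower means in expanded than in control Cpz fibroblasts and higher ones in expanded Cpz-low fibroblasts, whereas Dkk2, Entpd1 and Lgmn show the opposite order.

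Differences between days could be examined with at least 10 cells per library only, where day 2 and day 4 had 1 expanded library each. The arm difference differed between day 2 and day 1 for 8 of 10697 genes (0.0748%), 6 higher (0.0561%) and 2 lower (0.0187%), at an edgeR adjusted p under 0.05. Between day 4 and day 1 it differed for 3 genes (0.028%), 1 higher (0.00935%) and 2 lower (0.0187%). Igfbp5, a binding protein of insulin-like growth factors, held 1317 and 863 CPM in the expanded libraries of day 1, 129 CPM on day 2 and 173 CPM on day 4, against 1127 to 1967 CPM in control libraries. The log2 difference of day 4 from day 1 was -3.43 (SE 0.50, edgeR adjusted p = 0.047) and rests on 1 expanded library. With RLE size factors, and without the limit on Tnc, 0 genes were called between day 4 and day 1. Cpxm1, a carboxypeptidase-like protein that binds collagen, held 396, 370, 2603 and 1619 CPM in expanded and 258 to 546 CPM in control libraries, and its day 2 minus day 1 difference was 3.02. It was seen in 15 of 15 Cpz fibroblasts of expanded day 2 round 1, and 249 of 729 UMIs came from 1 cell.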

How the data were processed

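Messenger RNA libraries of 5 control and 5 expanded pools were used, and the antibody libraries only to assign mice. For control day 1 round 2 the titles of the mRNA and antibody samples are exchanged relative to their descriptions and to the features in their files, and the descriptions and files were followed. The authors deposited raw UMI counts per gene and barcode for 32285 genes, 78 of them with a shared symbol, which Cell Ranger 6.1.2 had produced according to the headers of the deposited files. The submitters' processing notes name the build mm10. Counts were summed per library over the cells of a class and given as CPM of all gene UMIs. The cells and the gene lists were chosen with earlier results of these data known. Tests used edgeR 4.0.16 (quasi-likelihood, filterByExpr, TMM, day as covariate, Benjamini-Hochberg) in R 4.3.3, with DESeq2 1.42.0 as an alternative, and the fits were tested on simulated data. Tables were made with Python 3.11.15, numpy 2.4.6, scipy 1.17.1, pandas 2.3.3 and matplotlib 3.10.9. Libraries needed at least 20 cells of a class, or 10 in the fuller fit, which was added after the cell numbers were seen. No doublet caller was run, and mixed droplets were left out as an alternative. Depth limits precision most in expanded libraries, whose Cpz fibroblasts held at most 903538 UMIs.

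Named genes were the 10 rising and 10 falling called genes with the largest change, at least 50 CPM and the same direction in every pair of day and round. Added to these were the 3 most changed called genes of each list (or its most abundant gene), the markers and rule genes, the 12 interaction genes and 4 genes per day difference of lowest p, and the 20 genes with the largest fold over Cpz-low fibroblasts. The rule was applied to both fits, and over the 4 pairs with at least 10 cells in both arms. The 20 genes of largest fold also had at least 50 CPM in control Cpz fibroblasts. They were taken only if higher in Cpz than in Cpz-low fibroblasts in every library compared. Same-numbered rounds share a sequencing round by the labels. Only day 1 allowed a check of the pairing, where deviations of round 1 correlated across 9192 genes with r = 0.090, genes not being independent.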

Additional observations from a re-analysis of the deposited data

Results flagged for a closer look

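For 12 genes the arm difference in Cpz fibroblasts differed from that in Cpz-low fibroblasts by edgeR's interaction test over 5 control and 4 expanded libraries, given as log2. The difference was -2.63 for Vldlr, -3.31 for Cp, -1.33 for Col18a1, -1.98 for Timp3 and -1.39 for Tgfbi. It was -2.90 for Vit, a matrix protein, at 24.8 and 11.2 CPM in control and expanded Cpz fibroblasts and 38.4 and 104 CPM in Cpz-low fibroblasts. It was -2.38 for the chemokine Cxcl2, at 99.4 and 51.2 CPM against 329 and 796 CPM. For the growth factor Bmp7 it was -2.58, at 7.16 and 8.80 CPM against 9.30 and 69.5 CPM, and for Gm26802 it was -1.51. The difference was 2.57 for Dkk2, 1.77 for Entpd1 and 1.41 for Lgmn. With the pairs of day and round as block, Tgfbi, Timp3, Lgmn, Cxcl2, Bmp7 and Gm26802 lost the call (adjusted p = 0.064 to 0.24) and the other 6 kept it.

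For 7 genes the arm difference differed between days, with 1 expanded library on day 2 and 1 on day 4. Between day 2 and day 1 the change was 5.56 for the chemokine Cxcl14, where 279 of 442 UMIs came from 1 cell, 3.02 for Cpxm1, -2.84 for the stress transcription factor Atf3 and 6.63 for Wfdc17, where 13 of 15 UMIs came from 1 cell. Between day 4 and day 1 it was 4.88 for Srgn, where 50 of 59 UMIs came from 1 cell, and -3.43 for Igfbp5. For the retinol carrier Rbp4 the fitted value was -11.5, against 0 UMIs on expanded day 4, and is no bound. With RLE size factors the calls were 4 between day 2 and day 1 and 0 between day 4 and day 1.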

How the results depend on the processing

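With 1 expanded library of at least 20 cells, the 9 calls became 137 by DESeq2, 595 without the filter on low counts, 4 in thinned cells, 4 in cells of 5000 to 20000 UMIs, 98 without the limit on Tnc, 54 with at least 3 UMIs of Cpz, 42 without mixed droplets, 2619 over all fibroblasts with 2 or more UMIs of Cpz, 512 with libraries of at least 10 cells and 12 to 440 without 1 library. The day 1 contrast equals that fit (595, 98, and 12 to 440 likewise) and called 34 genes with at least 10 cells. The 512 calls became 838 without the filter, 272 without the day term, 142 in cells of 5000 to 20000 UMIs, 263 with at least 3 UMIs of Cpz, 267 without mixed droplets and 200 to 516 without 1 library. With the pairs of day and round as block they were 514. With at least 20 cells that block left no residual degree of freedom.

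The 4 interaction calls became 140 without the filter, 9 in thinned cells, 16 without the Tnc limit, 27 with at least 10 cells and 2 to 7 without 1 library. With at least 20 cells the block of day and round gives the same fit as library, because only 1 expanded library remained. That setting is therefore no check. With at least 10 cells the block gave 7 calls in place of the 27. The 27 became 317 without the filter, 51 in thinned cells, 12 without the Tnc limit and 6 to 75 without 1 library. The 8 day 2 differences became 92 without the filter, 4 with RLE and 2 without the Tnc limit, and the 3 day 4 differences became 40, 0 and 0.

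Of 1170 values of 62 named genes in the fuller fit, 947 kept their side of the threshold, 197 lost it, 10 gained it and 16 changed sign. In thinned cells the sign changed for Actb (-0.052), Apcdd1 (-0.51), Eno1 (-0.11) and Fos (-0.14). Apcdd1 was also -0.019 without the Tnc limit and -0.023 to 0.21 without 1 library. Fos was -0.050 with at least 3 UMIs of Cpz and -0.11 to 0.61 without 1 library. H2-D1 was 0.016 with RLE, 0.021 by DESeq2, 0.083 without mixed droplets and -0.31 to 0.014 without 1 library, and Wfdc12 was -0.47 without mixed droplets. The cause was not tested. Mice as replicates were not run, because 0 of 14 expanded mice with hashtags had 20 assigned Cpz fibroblasts. In the hashed expanded libraries 32 of 44 Cpz fibroblasts were assigned to a mouse. The 43 cells of expanded day 1 round 1, which had no hashtags, could not be assigned. Few expanded cells limit all arm differences.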
